A study of Homo sapiens with 4 samples.

Results

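The genes described here encode the nuclear part of the mitochondrial respiratory chain and ATP synthase, together with assembly factors that carry the same gene names. They were chosen by symbol as coding genes that start with NDUF (complex I), SDHA to SDHD (complex II), UQCR (complex III), COX followed by a digit (complex IV) or ATP5 (complex V). The rule took 109 of the 20043 coding genes in the gene table, after the mitochondrially encoded COX genes, which had no listed peak, were set aside. Of the 109 genes, 59 had at least 1 listed peak of N6-methyladenosine (m6A) in either library and 50 had none.

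The study mapped m6A in HEK293T, an established human embryonic kidney cell line that is easy to transfect. In MeRIP-seq, polyadenylated RNA is broken into pieces, here of 100 to 300 nt, and pieces that carry m6A are pulled down with an antibody and sequenced. One list of peaks was analysed for each immunoprecipitation, called Ctrl and Cas, with 1 library each. The labels give both groups the same treatment, a polyethylenimine transfection with dCas13b-M14 and a gRNA and a harvest 24 h later, so they tell neither how Ctrl differed from Cas nor what M14 stands for. Cas13b is an RNA-guided nuclease of RNA, and the prefix d denotes a form that no longer cuts. The study's title concerns m6A changes at single bases, and nothing in the labels names a respiratory chain gene as a target. The lists held 23623 peaks in Ctrl and 23134 in Cas, none with a read count or score, so depth is unknown and no test between the libraries was possible. Every difference given here is one between 2 libraries, and the intervals are exact 95% binomial intervals that cover only the counting of genes or peaks. A gene without a peak is a gene not listed. Low expression and low methylation cannot be told apart for it, since the input libraries were not analysed here, and in bulk RNA neither can fewer cells and less RNA per cell.

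The respiratory chain passes electrons from NADH (complex I) and succinate (complex II) through complex III to oxygen at complex IV, and the proton gradient this builds drives ATP synthesis by complex V. Most subunits are short proteins made from short nuclear transcripts and imported into mitochondria, while assembly factors insert flavin, iron-sulfur, heme and copper cofactors and join the modules. The m6A mark lies mostly near stop codons and in 3' UTRs of messenger RNA, within a sequence context called DRACH (A, G or T; then A or G; then A; then C; then A, C or T), of which GGACT is the form used most often.

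Sequences from 12 of the genes show what lay under the peaks that both libraries shared. Each is the 28 nt around the GGAC nearest the centre of the shared interval, written 5' to 3' from GENCODE release 29 transcripts as DNA letters, with GGAC and the base after it in capitals. For complex V such an interval could be read for ATP5F1B, ATP5F1C and ATP5MC1. These were the genes in both libraries whose transcript model held every peak and had its 5' end within 100 nt of the RefSeq gene's. None of these intervals held a GGAC, so the nearest DRACH is in capitals instead.
NDUFB8: atggtatagctgGGACCagccgggcctg
NDUFAF7: atatttcagcttGGACAttttacccttc
NDUFB6: gcgatggctgaaGGACCaggagctgagc
SDHA: cgtgcatttggtGGACAgagcctcaagt
SDHAF2: actacttatgatGGACGttagccttgct
SDHD: catctctccactGGACTagcgagagggt
UQCR10: ggtactcttcatGGACCaccattcgctg
COX20: gtggctggctttGGACAttttttgttca
COX7A2L: aaatgctttaccGGACCaccatggcgct
COX11: cagagtggagtgGGACAggaggtgccga
ATP5F1C: caaggggcctgaAGACAagaagaaacac
ATP5MC1: gtgaattcatctAAACAgccttcctaca

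All of these stretches except that of ATP5MC1 lie within a single exon, and their places are given on GRCh38. The complex I sequences come from chr10:100526996-100527023 (minus strand, coding part of exon 3 of 5 of NDUFB8), chr2:37248350-37248377 (plus strand, 3' UTR in exon 10 of 10 of NDUFAF7) and chr9:32572974-32573001 (minus strand, coding part of exon 1 of 4 of NDUFB6). Those of complex II come from chr5:225937-225964 (plus strand, coding part of exon 5 of 15 of SDHA), chr11:61446117-61446144 (plus strand, 3' UTR in exon 4 of 4 of SDHAF2) and chr11:112088882-112088909 (plus strand, coding part of exon 3 of 5 of SDHD). The UQCR10 sequence lies at chr22:29769813-29769840 (plus strand, 3' UTR in exon 2 of 2). Those of complex IV lie at chr1:244842028-244842055 (plus strand, coding part of exon 2 of 4 of COX20), chr2:42351286-42351313 (minus strand, coding part of exon 4 of 4 of COX7A2L) and chr17:54968507-54968534 (minus strand, coding part of exon 1 of 4 of COX11). The ATP5F1C sequence lies at chr10:7799012-7799039 (plus strand, coding part of exon 4 of 10), and the ATP5MC1 sequence spans an exon junction on chromosome 17. The distance from the motif's A to the stop codon ran from -1468 nt in SDHA to 172 nt in UQCR10, with negative values upstream. It was 16 nt in NDUFAF7, 62 nt in SDHAF2 and -78 nt in COX7A2L. SDHD held the most frequent form, GGACT, and the SDHAF2 stretch ends its motif in G and is therefore no DRACH. A motif in a peak is a description of the sequence and does not place the methylated base.

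Respiratory chain genes were listed about as often as other coding genes in both libraries. In Ctrl 49 of 109 had a peak (45.0%, 95% interval 35.4 to 54.8), where 49.2% of all coding genes did. In Cas 54 of 109 had a peak (49.5%, 39.8 to 59.3), where 46.9% of coding genes did. A peak in either library was listed for 59 (54.1%, 44.3 to 63.7) beside 51.5% of coding genes, and a peak in both for 44 (40.4%, 31.1 to 50.2) beside 44.6%. Each list held 67 peaks on these genes, covering 11678 nt in Ctrl and 11611 nt in Cas. Coding genes with transcripts in the length range of these genes, 365 to 13566 nt, had a peak in 51.8% (Ctrl), 49.4% (Cas), 54.2% (either) and 47% (both). They were Ctrl only in 4.8% and Cas only in 2.41%. That range held 18609 of the 18853 coding genes with a known length, so it is no match by length. These background shares include genes that this cell line may not express. Of the 109 genes, 50 overlap no exon of another annotated gene, and 26 of those had a peak; the labels do not say whether peaks were called by strand.

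The complexes differed in how many of their genes were listed. Complex II had the highest share, with 7 of 8 genes in either library (87.5%, 47.3 to 99.7). Complexes I, III and V followed with 25 of 46 (54.3%, 39.0 to 69.1), 5 of 9 (55.6%, 21.2 to 86.3) and 11 of 20 (55.0%, 31.5 to 76.9). Complex IV had the lowest share, with 11 of 26 (42.3%, 23.4 to 63.1). All of these intervals overlap, so the order of the complexes is not settled by so few genes. Assembly factors were listed more often than subunits, with 16 of 21 (76.2%, 52.8 to 91.8) against 43 of 88 (48.9%, 38.1 to 59.8). In complex I 18 of 38 subunit genes and 7 of 8 assembly factors had a peak, and in complex IV 5 of 17 subunit genes and 6 of 9 assembly factors. The assembly factor genes also had longer transcripts, with a median of 2033 nt for the longest GENCODE transcript against 963 nt for subunit genes.

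**Figure D1:**
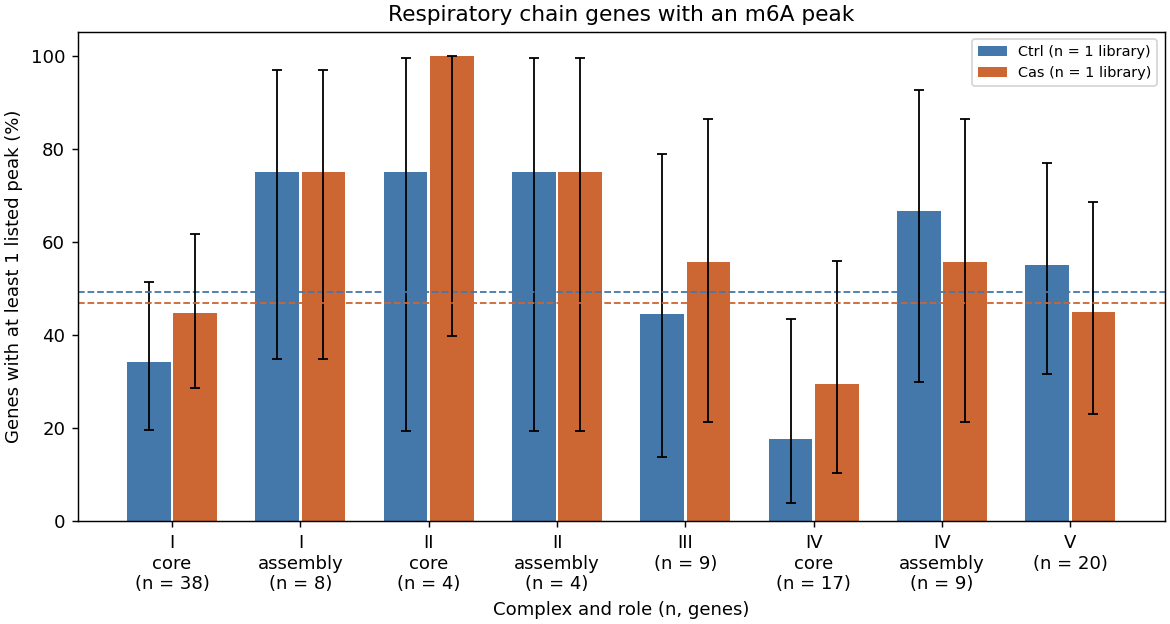
Share of genes with at least 1 listed peak (%, vertical axis) by complex and role (horizontal axis, with the number of genes), for the Ctrl and Cas libraries (n = 1 each). Bars are shares, whiskers exact 95% binomial intervals and dashed lines the shares of all coding genes (49.2% in Ctrl, 46.9% in Cas). Complex IV subunit genes stand lowest, at 17.6% in Ctrl and 29.4% in Cas, and the complex II subunit genes reach 100% in Cas with 4 genes.

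Transcript length went with the presence of a peak. The longest transcript of the 59 genes with a peak had a median of 1839 nt, and that of the 49 genes without a peak for which a length was known had a median of 755 nt. Among genes with transcripts under 1000 nt, 18 of 50 had a peak in either library (36%, 22.9 to 50.8), whereas 15.7% of 1588 coding genes of that length did. From 1000 nt to under 2000 nt the count was 14 of 25 (56%, 34.9 to 75.6) beside 36.9% of 4210 coding genes. From 2000 nt upward it was 27 of 33 (81.8%, 64.5 to 93.0) beside 64.5% of 13055. Within each class the share among respiratory chain genes was higher than among coding genes of like length, and 50 of the 108 genes with a known length fell in the shortest class. The interval lay clear of the coding share in the shortest class and came down to about that share or below it in the other classes. Subunit genes and assembly factors of one length class were closer to each other than over all lengths, with 16 of 46 and 2 of 4 in the shortest class, 11 of 20 and 3 of 5 in the middle class and 16 of 21 and 11 of 12 in the longest. The part that expression plays in these shares was not tested.

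**Figure D2:**
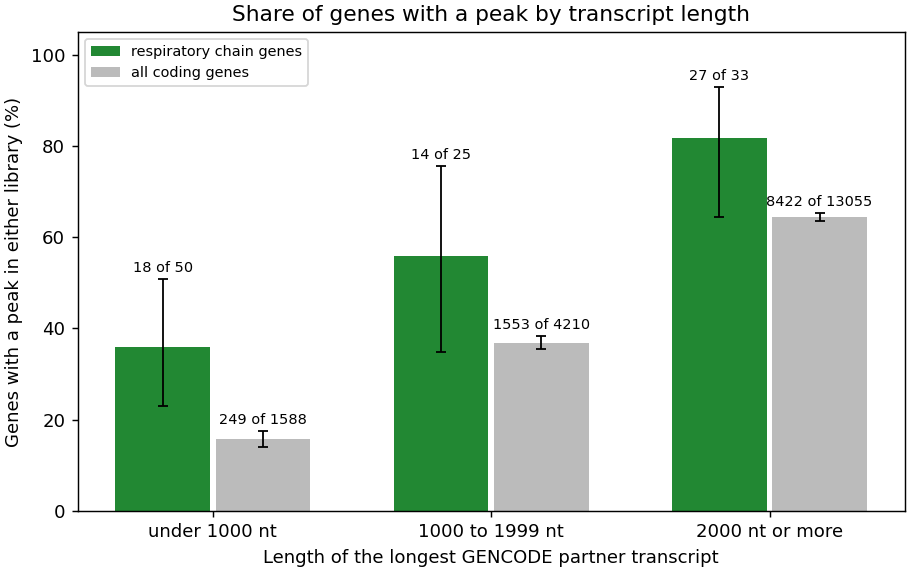
Share of genes with a peak in either library (%, vertical axis) in 3 classes of the longest GENCODE transcript (horizontal axis), for respiratory chain genes and for all coding genes, with exact 95% binomial intervals. The share rises with length in both sets, from 36% to 81.8% among the respiratory chain genes and from 15.7% to 64.5% among coding genes.

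Complex I takes electrons from NADH. The NDUFS and NDUFV names go back to fractions of the enzyme that hold its flavin and iron-sulfur clusters, and NDUFA, NDUFB and NDUFC genes encode accessory subunits. All 3 NDUFV genes and 5 of 8 NDUFS genes had a peak, against 6 of 13 NDUFA (NDUFAB1 included), 4 of 11 NDUFB and 0 of 3 NDUFC genes. NDUFA9 (chromosome 12, 4649114 to 4694317), an accessory subunit of the matrix arm, had a peak at 881 to 1281 in Ctrl and at 871 to 1281 in Cas, counted from the start of transcript NM_005002. It was among the widest on these genes in both libraries, at 401 and 411 nt, and its centre lay within 200 nt of the stop codon. NDUFAF7 (chromosome 2, 37231658 to 37271365, NM_144736), a methyltransferase that acts in complex I assembly, had a peak of 340 nt at 1137 to 1476 in Ctrl and one of 165 nt at 1292 to 1456 in Cas. The Cas interval lay wholly inside the Ctrl interval and over the stop codon.

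Among the other NDUFS and NDUFV genes, NDUFV2, an iron-sulfur subunit, kept the same pair of peaks in both libraries, at 121 to 260 and 754 to 905 in Ctrl and at 123 to 240 and 756 to 903 in Cas. NDUFV3 had a peak at 701 to 820 in Ctrl and at 681 to 880 in Cas, and Cas listed a further peak at 3071 to 3170. NDUFS1, the largest iron-sulfur subunit, went the other way: Ctrl listed peaks at 161 to 260 and 543 to 783, and Cas only the one at 543 to 779. NDUFS3 had a peak at 747 to 927 in Ctrl and 759 to 925 in Cas, next to the stop codon. NDUFS7, an iron-sulfur subunit near the quinone site, was the only gene here with a peak in both lists and no overlap, at 834 to 969 in Ctrl and at 973 to 1072 in Cas, both in the 3' UTR. Of the accessory subunits, NDUFA5, NDUFA7, NDUFB5, NDUFB6 and NDUFB8 had overlapping peaks in both libraries. The peaks of NDUFA7 (61 to 160) and NDUFB6 (107 to 255) had the same first and last position in both lists. Of the assembly factors, NDUFAF1, NDUFAF2, NDUFAF5 and NDUFAF6 were in both as well, and NDUFAF5, a hydroxylase of NDUFS7, had a second Cas peak at 52 to 190.

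Complex II oxidises succinate and is encoded in the nucleus throughout. SDHA (chromosome 5, 218320 to 268746, NM_004168), its flavoprotein, had peaks at 428 to 658 and 2271 to 2370 in Ctrl and at 471 to 655 and 2251 to 2370 in Cas. SDHA resembles the pseudogenes SDHAP1 to SDHAP4, all of which had listed peaks too, so reads may be divided between them. SDHD (chromosome 11, 112086873 to 112095794, NM_001276506), a membrane anchor, had a peak at 106 to 329 in Ctrl and at 76 to 260 in Cas. SDHC, the other anchor, had a pair of peaks in each library, at 992 to 1154 and 1521 to 1710 in Ctrl and at 992 to 1149 and 1481 to 1650 in Cas. SDHAF2 (chromosome 11, 61430124 to 61446733, NM_017841), which attaches flavin to SDHA, had a peak over the stop codon at 500 to 683 in Ctrl and at 443 to 681 in Cas. SDHAF3 (1321 to 1487 in Ctrl, 1318 to 1497 in Cas) and SDHAF4 (141 to 287 in Ctrl, 81 to 280 in Cas) were in both libraries with 1 peak each. SDHB, the iron-sulfur subunit, had a peak in Cas only, and SDHAF1 was the gene of this complex with no peak.

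Complex III passes electrons from quinol to cytochrome c. UQCR10 (chromosome 22, 29767369 to 29770413, NM_001003684), a small subunit, had a peak at 294 to 468 in Ctrl and at 294 to 447 in Cas. UQCRC2 (chromosome 16, 21953361 to 21983660, NM_003366) had peaks at 314 to 462 and 1711 to 1851 in Ctrl and at 295 to 467 and 1691 to 1851 in Cas. UQCRC1 (chromosome 3, 48599002 to 48609646, NM_003365), the other so-called core protein, had a peak at 600 to 757 in Ctrl and at 601 to 757 in Cas, a shift of 1 nt at the start and none at the end. UQCRFS1, the Rieske iron-sulfur protein, had a peak at 591 to 710 in Ctrl and 591 to 724 in Cas, and a further Ctrl peak at 951 to 1050. No peak of this complex was wider than 175 nt.

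Complex IV reduces oxygen with heme and copper. COX15 and COX20, its genes with the most bases under peaks in each library, were assembly factors. COX15 (chromosome 10, 99694293 to 99732127, NM_078470), which makes heme A, had the most peaks of all 59 genes, with 5 in Ctrl and 3 in Cas. The Ctrl peaks upstream spanned 731 to 850 and 891 to 1029 and had no counterpart in Cas. Downstream, Ctrl peaks at 1781 to 1933 and 3401 to 3630 overlapped Cas peaks at 1779 to 1994 and 3359 to 3688. The fifth Ctrl peak (2756 to 2908) and the third Cas peak (2966 to 3104) lay close together without overlap. COX20 (chromosome 1, 244835306 to 244845063, NM_198076), a chaperone of the copper-bearing subunit, had peaks at 131 to 280 and 531 to 780 in Ctrl and at 31 to 290 and 501 to 776 in Cas. The bases covered came to 400 nt in Ctrl and 536 nt in Cas. COX7A2L (chromosome 2, 42335559 to 42368957, NM_001319036), which joins complexes III and IV into supercomplexes, had peaks at 931 to 1135 and 1386 to 1490 in Ctrl and at 931 to 1152 and 1381 to 1510 in Cas.

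The remaining complex IV genes had 1 or 2 peaks. COX11, which delivers copper, had peaks at 153 to 319 and 1120 to 1260 in Ctrl and only at 152 to 322 in Cas. COX19, a copper-handling protein of the intermembrane space, had peaks far down its 3' UTR at 1901 to 2050 and 2361 to 2577 in Ctrl and at 2411 to 2510 in Cas. COX10, the enzyme before COX15 in heme A synthesis, had a coding peak at 482 to 638 in Ctrl and at 472 to 651 in Cas. Of the subunit genes, COX4I1 (811 to 977 in Ctrl, 811 to 972 in Cas) and COX7A2 (485 to 625 in Ctrl, 485 to 648 in Cas) were in both libraries, each with an unchanged start.

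Complex V makes ATP. ATP5F1B (chromosome 12, 56638175 to 56645984, NM_001686), the catalytic beta subunit, showed one of the larger differences in extent, with a coding peak at 241 to 710 in Ctrl (470 nt, the widest on these genes) and at 588 to 747 in Cas (160 nt). ATP5F1A (chromosome 18, 46080248 to 46104227, NM_001257335), the alpha subunit, had nearly equal peaks at 754 to 1109 in Ctrl (356 nt) and 754 to 1129 in Cas (376 nt). ATP5PB (chromosome 1, 111449464 to 111462773, NM_001688), a stator subunit, had a peak at 937 to 1179 in Ctrl and at 944 to 1174 in Cas. ATP5MC1, ATP5MC2 and ATP5MC3 encode the same c-ring subunit with different import sequences, and all were in both libraries. ATP5MC1 and ATP5MC3 had 1 peak each and ATP5MC2 had 2, and the ATP5MC3 peak had equal ends in both (109 to 299). ATP5F1C, the gamma subunit, had a peak at 215 to 370 in Ctrl and at 215 to 410 in Cas. ATP5PO, which ties the stator to the catalytic head, had one at 631 to 737 in Ctrl and 651 to 750 in Cas. ATP5MF-PTCD1, a readthrough transcript, had 2 peaks in each library, and it shares exons with ATP5MF, so peaks on either gene are uncertain.

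**Figure D3:**
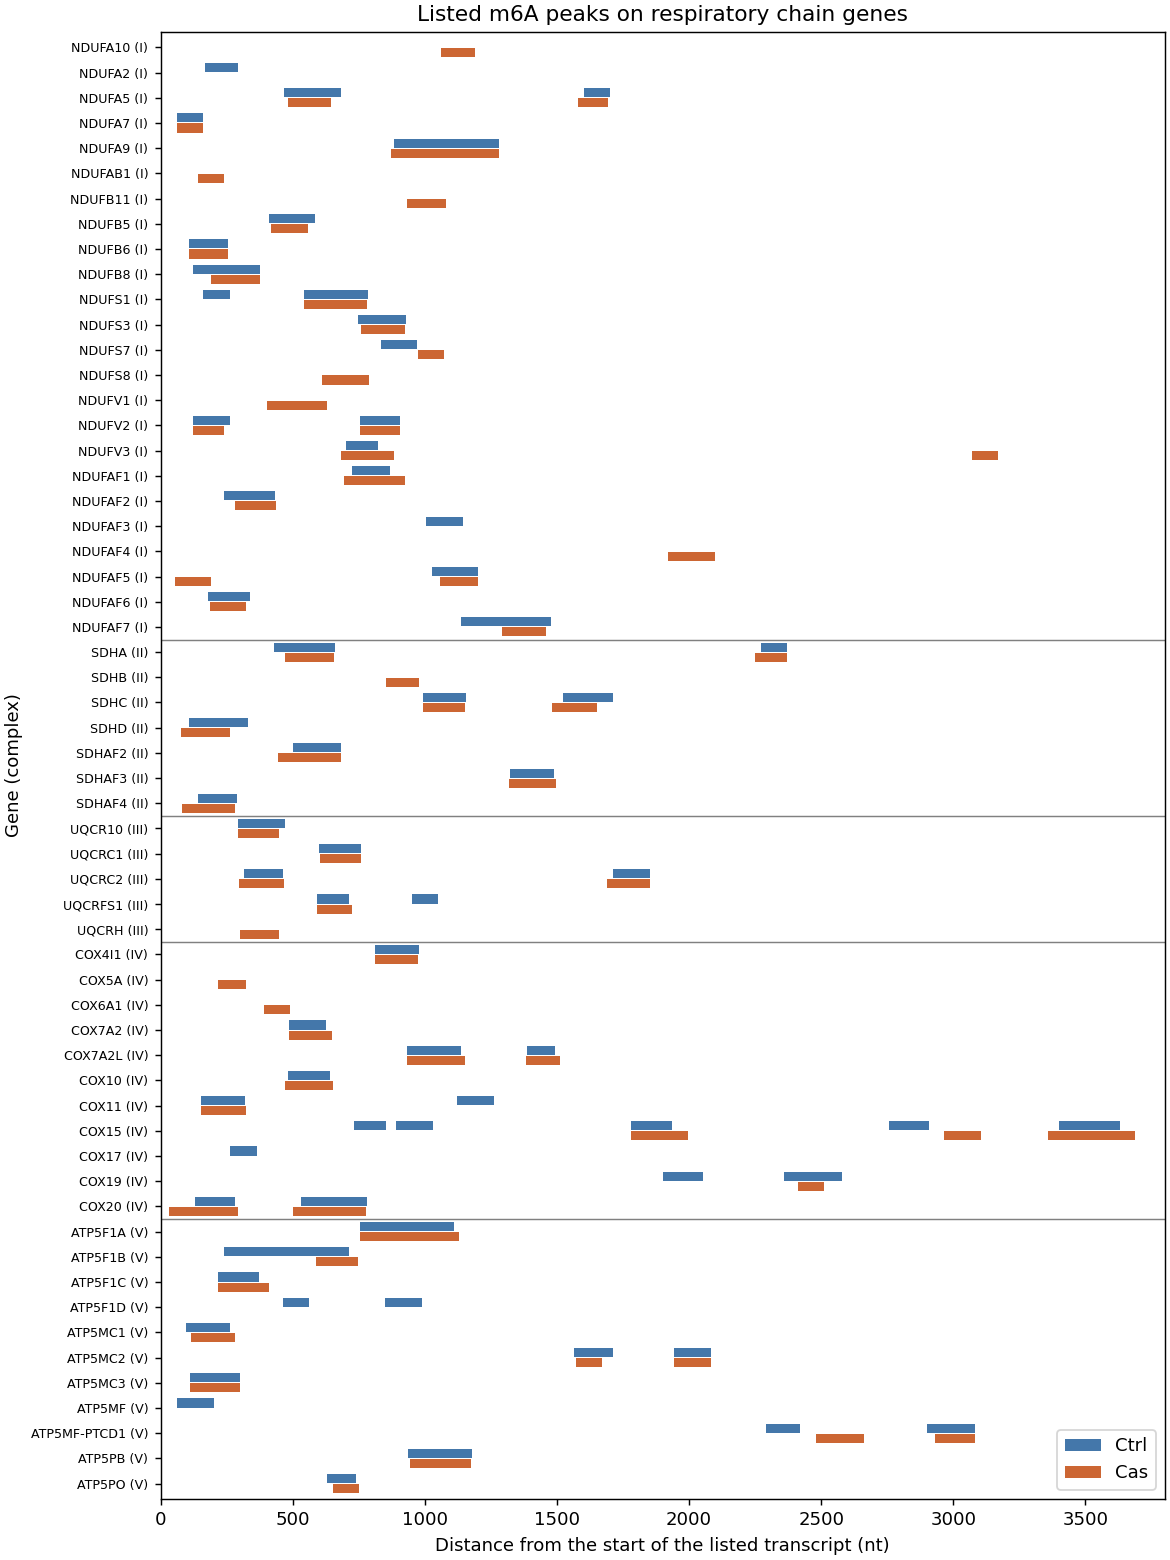
Listed peaks of the genes with a peak that are described here, drawn as bars along the listed transcript (horizontal axis, distance from its start in nt), with Ctrl above Cas for each gene (vertical axis) and genes grouped by complex. Most genes have 1 bar per library at nearly the same place, and COX15 has the most bars, with 5 in Ctrl and 3 in Cas.

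Some of the genes were listed in a single library. In Ctrl only there were 5 genes (4.59%, 1.51 to 10.4), where 4.57% of coding genes were Ctrl only. They were NDUFA2 (168 to 290), an accessory complex I subunit, NDUFAF3 (1004 to 1143), an assembly factor of the quinone module, COX17 (261 to 364), the copper chaperone, ATP5MF (62 to 200), and ATP5F1D (461 to 560 and 848 to 987), the delta subunit. All 6 of these peaks were between 100 and 140 nt wide, close to the narrowest width in either list, 100 nt. Exons of NDUFA2, NDUFAF3, COX17 and ATP5MF overlap those of another annotated gene, and exons of ATP5F1D do not. Among genes under 1000 nt, 4 of 50 were Ctrl only (8%, 2.22 to 19.2) beside 1.83% of coding genes, a share below the interval. From there to under 2000 nt it was 0 of 25 (0 to 13.7) beside 4.28%. From 2000 nt upward it was 1 of 33 (3.03%, 0.0767 to 15.8) beside 5.31%. Both of these intervals held the coding share.

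In Cas only there were 10 genes (9.17%, 4.49 to 16.2), where 2.28% of coding genes were Cas only, a share below the interval. Complex I held 6 of them: NDUFV1 (401 to 630), which binds NADH and flavin, NDUFS8 (611 to 787), an iron-sulfur subunit, NDUFA10 (1061 to 1190) and NDUFB11 (931 to 1077), both accessory, NDUFAB1 (141 to 240), the mitochondrial acyl carrier protein, and NDUFAF4 (1921 to 2096), an assembly factor. The others were SDHB (851 to 975), UQCRH (299 to 447), the hinge protein of complex III, and the complex IV subunits COX5A (218 to 320) and COX6A1 (391 to 490). Exons of NDUFV1, NDUFS8, NDUFB11 and COX6A1 overlap those of another annotated gene, and exons of the other Cas-only genes do not. NDUFV1, NDUFS8 and NDUFAF4 had peaks of 230, 177 and 176 nt, and the other 7 had narrower peaks, down to 100 nt. These names depend on which peaks are counted. With peaks of at least 150 nt only, 3 of the 10 remained Cas only (NDUFV1, NDUFS8 and NDUFAF4), the other 7 had no peak left, and 5 genes otherwise in both libraries became Cas only. Of the 5 Ctrl-only genes, 0 remained at that width, and 5 other genes, otherwise in both libraries, became Ctrl only. By length, 4 of 50 genes under 1000 nt were Cas only (8%, 2.22 to 19.2) beside 3.84% of coding genes, 4 of 25 from there to under 2000 nt (16%, 4.54 to 36.1) beside 3.68%, and 2 of 33 longer ones (6.06%, 0.743 to 20.2) beside 1.82%. The interval lay above the coding share in the middle class and held it in the other classes. No complex V gene was Cas only and no complex II or III gene was Ctrl only. Complex V had 14 peaks over 2667 nt in Ctrl and 11 over 1995 nt in Cas, while complex I had 22 over 4013 nt in Ctrl and 27 over 4573 nt in Cas. With 1 library per group neither difference can be set against replicate error.

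**Figure D4:**
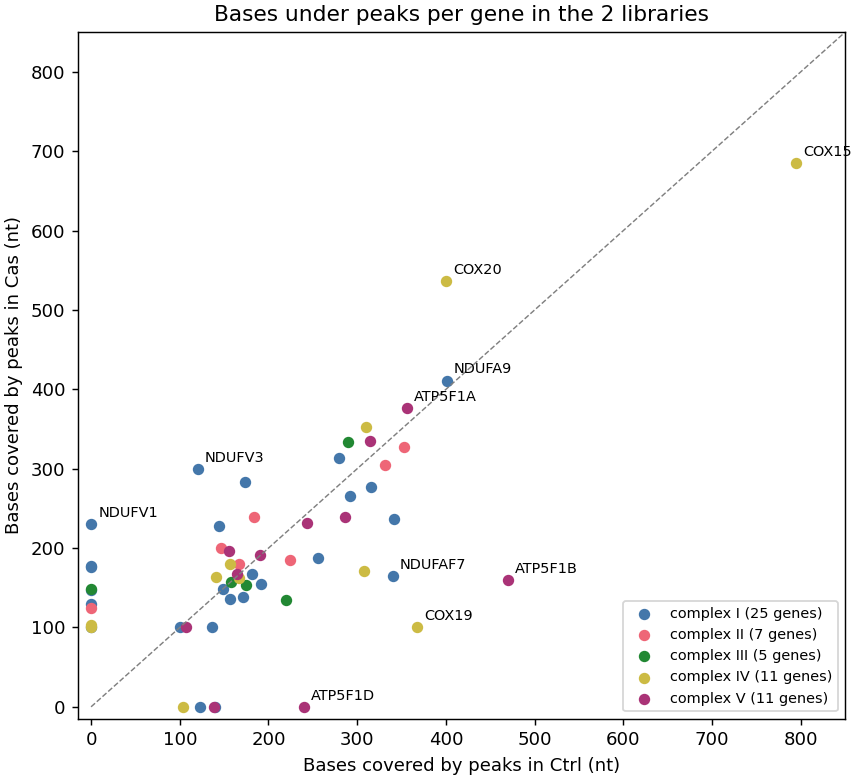
Bases covered by peaks per gene in Ctrl (nt, horizontal axis) and in Cas (nt, vertical axis), 1 point per gene with a peak, coloured by complex, with the line of equal coverage dashed. Points on the axes are the 5 genes listed in Ctrl only and the 10 in Cas only, and ATP5F1B lies farthest below the line among genes in both, at 470 and 160 nt.

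The remaining 50 genes had no listed peak. In complex I they were NDUFA1, NDUFA3, NDUFA6, NDUFA8, NDUFA11, NDUFA12, NDUFA13, NDUFB1, NDUFB2, NDUFB3, NDUFB4, NDUFB7, NDUFB9, NDUFB10, NDUFC1, NDUFC2, NDUFC2-KCTD14, NDUFS4, NDUFS5, NDUFS6 and the assembly factor NDUFAF8. In complex II it was SDHAF1 and in complex III UQCR11, UQCRB, UQCRQ and UQCRHL, a near copy of UQCRH. In complex IV they were COX4I2, COX5B, COX6A2, COX6B1, COX6B2, COX6C, COX7A1, COX7B, COX7B2, COX7C, COX8A and COX8C among the subunits and COX14, COX16 and COX18 among the assembly factors. In complex V they were ATP5F1E, ATP5ME, ATP5MG, ATP5MGL, ATP5MJ, ATP5MK, ATP5PD, ATP5PF and the inhibitor ATP5IF1. The muscle or testis isoforms COX6A2, COX7A1, COX6B2 and COX8C are in this group, and the blood, liver and muscle markers PTPRC, CD3E, ALB and MYH7 had no listed peak either. The longest transcripts in this group were those of COX18, a membrane insertase, at 6846 nt, UQCRB at 5575 nt and ATP5F1E, the epsilon subunit, at 3665 nt.

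Where peaks of both libraries overlapped, they stood at closely similar places. Each list held 67 peaks on these genes, those of genes in a single library included. In each, 52 overlapped a peak of the other by at least 1 nt (77.6%, 65.8 to 86.9), beside 75.8% of all Ctrl peaks and 78.0% of all Cas peaks. Peaks on these genes were narrower than peaks in general, with a median of 153 nt in Ctrl and 162 nt in Cas against 194 and 188 nt. Of the 52 overlapping pairs, 12 began at the same position (23.1%) beside 8.50% of 18188 pairs over all genes, and 11 ended at the same position (21.2%) beside 10.1%. The further position that each list gives inside a peak, whose meaning is not stated, moved by a median of 5.5 nt against 21 nt over all pairs. Among pairs with both peaks at most 200 nt wide it moved by 4 nt (33 pairs) against 13 nt, so the closer match was also present among narrow peaks. Ctrl had the wider peak in 25 pairs, Cas in 24, and 3 pairs were equal.

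Few of these genes carried several peaks. At most 1 peak per library was listed for 42 of the 59 (71.2%), where 31.7% of coding genes with a peak had so few. Under 2000 nt it was 29 of 32 (90.6%) beside 72.7% of coding genes with a peak. COX15 was the only one with 3 or more peaks in a library, a number reached by 38.4% of coding genes with a peak and by 3.66% of those under 2000 nt. Of the 44 genes in both libraries, 37 had the same number of peaks in each (84.1%) beside 55.3% of coding genes. Among those under 2000 nt it was 20 of 20 beside 81.3% of coding genes of that length. Ctrl had more peaks on COX11, COX15, COX19, NDUFS1 and UQCRFS1, and Cas on NDUFAF5 and NDUFV3.

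Positions relative to the coding sequence need a transcript model with the right 5' end. The 5' end of the listed transcript itself was not compared, only that of its RefSeq gene. A model that held every peak and began within 10 nt of the gene's 5' end was at hand for 9 genes (ATP5F1D, COX11, COX17, NDUFA9, NDUFAF4, NDUFAF7, NDUFB6, NDUFS7 and UQCR10). Of their 10 Ctrl peaks, 5 had their centre within 200 nt of the stop codon (50%, 18.7 to 81.3), 3 in the rest of the 3' UTR and 2 in the rest of the coding sequence. Of their 7 Cas peaks, 3 were near the stop codon (42.9%, 9.90 to 81.6) and 2 each in the 3' UTR and the coding sequence. Over all genes with such models, 24.6% of Ctrl peaks and 23.8% of Cas peaks were near the stop codon. A wider set of 34 genes, for which the region came out the same from either of the 5' ends up to 100 nt apart, gave 13 of 32 Ctrl peaks near the stop codon (40.6%, 23.7 to 59.4) and 14 of 35 Cas peaks (40.0%, 23.9 to 57.9), beside 24.1% and 23.0% of all peaks in such models. In that set 12 Ctrl and 15 Cas peaks lay in the rest of the coding sequence, 6 and 5 in the 3' UTR and 1 each, on COX20, in the 5' UTR. Short transcripts hold a larger part of their length within 200 nt of the stop codon.

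**Figure D5:**
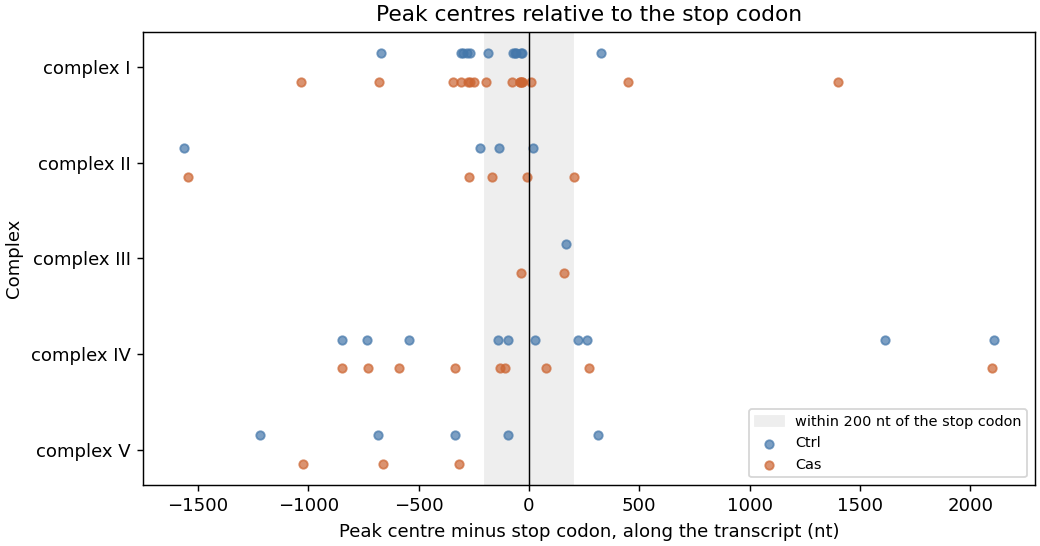
Distance from the stop codon to the peak centre (nt, horizontal axis, negative upstream) for the 32 Ctrl and 35 Cas peaks of the wider set of 34 genes, by complex (vertical axis). The grey band spans 200 nt to either side of the stop codon and holds 13 Ctrl and 14 Cas peaks.

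The motif content of the peaks did not stand clear of that of peaks in general. On transcript models with 5' ends up to 100 nt apart, DRACH was present on the transcript strand in 32 of 33 Ctrl peaks (97.0%, 84.2 to 99.9) and in 35 of 35 Cas peaks (100%, 90.0 to 100), beside 97.5% of Ctrl and of Cas peaks over all genes. GGACT, which is itself a DRACH, was present in 5 Ctrl peaks (15.2%, 5.11 to 31.9) and in 8 Cas peaks (22.9%, 10.4 to 40.1), beside 28.6% and 26.4%, both within the intervals. The Ctrl peak without a DRACH was that of NDUFA2, which says only that these letters are not in the window read, and that window can be off by the difference between the 5' ends.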

How the data were processed

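The authors deposited 1 list of m6A peaks for each immunoprecipitation library, with no counts or scores. As deposited, each peak has a RefSeq transcript, a first and a last position along it (counted from 1) and a further inner position of unstated meaning. The build GRCh38 and the tools HOMER, edgeR, SAMtools, HISAT2, fastp and FastQC are listed, without versions, per the submitters' processing notes. How peaks were called, with what threshold, and whether input or strand was used are not given, and neither is the transcript release.

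Symbols and gene coordinates came from RefSeq's gene table for GRCh38.p14. Of 11254 listed transcripts, 319 had no match. Genes and peaks were counted with Python 3.11.15, pandas 2.3.3 and scipy 1.17.1, and the overlap counts were tested on simulated peaks. Transcript length was that of the longest GENCODE release 29 transcript cross-referenced to the gene (108 of 109 genes). The listed transcript's partner was that longest one for 47 of the 56 genes compared. Regions, motifs and sequences were read on the single GENCODE partner of the listed transcript, only where it held every peak of that transcript. Its 5' end was compared with that of the RefSeq gene.

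The genes, lists and comparisons were chosen with earlier results of these data known. All genes in 1 library were named, and for genes in both, those with most peaks and the 3 widest of each complex are given in full, except that some results the rule takes are not reported here. Sequences were taken in order of the width of the shared interval. Alternatives covered peak width, peaks on a 10-base grid, the definition of overlap, transcript models, motifs and the background.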

Additional observations from a re-analysis of the deposited data

How the results depend on the processing

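No paired analysis was possible because neither condition had a further library, and for the same reason no library could be left out. Under the settings tried, 37 values stayed within 1.5 times the count or within the counting interval, and 16 moved as follows, and the cause was not tested. With only the wider 50% of each list, 22 genes had a peak and 8 were in both, with 9, 4, 0, 4 and 5 in complexes I to V. At that setting 53.3% of Ctrl and 47.1% of Cas peaks overlapped, beside 65.3% and 66.6% of peaks over all genes. The cut was the median width of each list, 194 nt in Ctrl and 188 nt in Cas. Peaks on these genes had medians of 153 and 162 nt, so more of them fell below the cut. With peaks of at least 150 nt only, 28 genes were in both. When peaks that began and ended on a 10-base grid were dropped, 8 genes were Ctrl only. Among the 50 genes whose exons are shared with no other gene, 26 had a peak, where 59 of all 109 genes did. This count moved with the smaller number of genes and is not to be read as a change in share. On the 9 genes with matching 5' ends, DRACH was in 100% of peaks, GGAC followed by A, C or T in 60% of Ctrl peaks, and GGACT in 20% of Ctrl and 42.9% of Cas peaks. Coding genes in the same range of transcript length had a peak in 54.2%. The sets of transcript models with 5' ends up to 100 nt apart were chosen after seeing the data, and their 6 values stayed within the intervals. The length classes were also chosen then. A count that stayed does not mean the same genes: without the grid peaks 6 of the 10 Cas-only genes remained so, COX6A1, NDUFA10, NDUFAB1 and NDUFV1 had no peak left, and 4 others entered. Depth is unknown and limits every absence of a peak.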

Other observations

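Respiratory chain genes whose names fall outside the rule were counted from a list of 36, mostly assembly factors. Of these, 26 had a peak in both libraries, beside 44.6% of coding genes, COA6 and CMC2 in Ctrl only, COA1 in Cas only, and 7 had none. LRPPRC, which stabilises mitochondrial messenger RNA, had 5 peaks in each library, over 980 nt in Ctrl and 1044 nt in Cas. LYRM7, which matures the Rieske protein of complex III, had 4 peaks over 449 nt in Ctrl and 6 over 1031 nt in Cas. CYCS, the cytochrome c gene, had 2 peaks in each library, over 433 nt in Ctrl and 427 nt in Cas. Those without a peak were CYC1, the heme subunit of complex III, UQCC2, COA4, COA8, CMC1, PET100 and SCO2. COXFA4, formerly NDUFA4, also had none.

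All 13 transcriptional regulators of the respiratory chain examined had a peak in both libraries, as 44.6% of coding genes did, and 57.4% of those with transcripts of 2000 nt or more. NRF1 and TFAM had 3 peaks in each library, and PPARGC1B, a coactivator of mitochondrial genes, had 2 in Ctrl and 6 in Cas. The longest transcripts of these regulators ran from 1424 nt (TFB1M) to 10568 nt (PPARGC1B).

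Among 215 pseudogenes with names of this kind, only SDHAP1, SDHAP2, SDHAP3 and SDHAP4 had a peak. SDHAP3 had a peak of 463 nt in Ctrl where Cas listed 2 of 180 and 133 nt, and SDHAP4 had a peak of 210 nt in Ctrl only. Of 7 lncRNA genes so named, COX10-DT had a peak of 271 nt in Ctrl and 240 nt in Cas, and NDUFB2-AS1 one of 100 nt in Ctrl and 280 nt in Cas.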
